A study of Mus musculus with 4 samples.

Results

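Heme, the iron porphyrin held by hemoglobin, catalase and the cytochromes P450, is built and broken down in the liver. The 10 genes described here cover its synthesis (Alas1, Alas2, Urod, Cpox and Fech), its transport (Slc48a1) and its breakdown (Hmox1, Hmox2, Blvra and Blvrb). They were picked by name, with earlier results of the same arrays known, and every probe set annotated to any of them and to no other gene was taken. Of the 10 genes, 9 had such a probe set in the annotation used, with 11 of the 12422 non-control probe sets between them, and Blvrb was not analysed here. A mean signal of at least 26.9 over the 4 arrays, the median of all probe set means, was reached by 8 genes with 9 probe sets, which are thus among 4829 genes kept. Fech and the dimmer probe set of Urod did not reach it and are given by their signals.

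The study asked how general loss of the hormone-sensitive lipase (HSL), encoded by Lipe, affects the liver. All mice were female, 8 months old and fed when killed. The HSL-null FD group had the knockout and 6 months of a diet with 58% of energy from fat, and its RNA came from a pool of 4 livers. The wild type FD group had the same diet for as long and intact HSL, with 6 livers in the pool. The HSL-null ND group had the knockout and a normal diet with 11% of energy from fat, with 6 livers in the pool, and the wild type ND group had intact HSL and that normal diet, with 6 livers in the pool. The strain and the allele were not given in the sources used here, and a general knockout removes HSL from every tissue, not from the liver alone.

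Each pool was read on 1 Affymetrix MG_U74Av2 array. As each group had 1 array, nothing could be tested against a spread between replicates, and "higher" or "lower" refers to these 4 pools alone. Precision is limited by the number of arrays. The median signal of an array lay between 25.2 and 28.3, and signals under 6.1 were raised to that floor before log2 was taken. Lipe had signals of 15.9 in HSL-null FD and 34.0 in wild type FD, while HSL-null ND had 11.9 and wild type ND 28. Where its probes fall in the gene, against the part deleted, is not stated by any source at hand, so Lipe checks the labels only in part. Albumin (Alb), which defines hepatocytes, had signals from 4679.9 to 6913. The solution lot differed between the genotypes, and the effects of lot and genotype cannot be told apart. Error could be gauged from 687 genes that 2 or more kept probe sets read: between the brightest pair of probe sets of a gene, log2 ratios disagreed with an SD of 0.298 for a single ratio. This SD was 0.378 for the 212 genes whose brighter probe set had a mean signal up to 100 and 0.255 for the 475 brighter genes. The 0.298 over all 687 genes is called the probe set SD here. It leaves out labelling error shared by an array and the variation between animals.

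Synthesis begins in the mitochondrion with 5-aminolevulinate synthase, which joins glycine and succinyl-CoA. Alas1 encodes the form used by most tissues, is the rate-limiting enzyme of liver heme synthesis and is repressed by heme, while Alas2 encodes the form of red cell precursors. The middle steps are cytosolic, among them uroporphyrinogen decarboxylase (Urod), and the last ones mitochondrial, with coproporphyrinogen oxidase (Cpox) and ferrochelatase (Fech), which inserts the iron. Slc48a1 encodes a transporter that moves heme out of endosomes and lysosomes into the cytosol. Heme oxygenases, inducible (Hmox1) and constitutive (Hmox2), open the ring to biliverdin, and biliverdin reductase A (Blvra) turns it into bilirubin.

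Sequence upstream of the start site is shown for the Alas1 and Alas2 pair, which encode the same first step and whose signals were both higher on FD in both genotypes, and for Blvra, which differed most of the genes with a window in the RefSeq promoter table (GRCm38.p6). Of the 9 genes with a probe set, Alas1, Alas2, Urod, Cpox, Hmox2 and Blvra have windows that were searched. Each sequence is the 250 bases before a start site, 5′ to 3′ on the strand of the gene, with matches to the motifs searched in capitals. The Blvra window is chr2:127070407-127070656 on the plus strand, the Alas1 window is chr9:106247955-106248204 on the minus strand, and the Alas2 window is chrX:150547167-150547416 on the plus strand.
Blvra: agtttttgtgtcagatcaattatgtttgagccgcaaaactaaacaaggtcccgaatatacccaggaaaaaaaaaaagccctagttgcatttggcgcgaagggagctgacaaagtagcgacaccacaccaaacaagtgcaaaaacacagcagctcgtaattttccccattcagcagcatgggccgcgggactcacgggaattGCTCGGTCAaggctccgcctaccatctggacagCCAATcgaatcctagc
Alas1: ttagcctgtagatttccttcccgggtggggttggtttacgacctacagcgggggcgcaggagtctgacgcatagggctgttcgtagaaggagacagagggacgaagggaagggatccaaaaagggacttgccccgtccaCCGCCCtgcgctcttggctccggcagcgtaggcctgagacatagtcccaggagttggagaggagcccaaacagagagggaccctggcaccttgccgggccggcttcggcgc
Alas2: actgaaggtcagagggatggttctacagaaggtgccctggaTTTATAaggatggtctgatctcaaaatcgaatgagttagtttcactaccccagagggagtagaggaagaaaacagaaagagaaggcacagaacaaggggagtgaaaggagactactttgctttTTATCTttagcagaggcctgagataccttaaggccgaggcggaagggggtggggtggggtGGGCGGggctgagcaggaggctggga
The motifs, read on both strands, were the E-box CACGTG, the core TGACNNNGC of the antioxidant response element, the letters GCATGCGC of the site of NRF1, the GATA letters TGATAA and AGATAA, the CACCC box CCACACCC, the GC box GGGCGG, the TATA box TATAAA and the CCAAT box. None of the matches in the 3 windows shown overlapped another.

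The Alas1 window held only a GC box, on the opposite strand at -111 to -106 from the start site, letters that 32.7% of 32851 windows of the same length hold. A second Alas1 window, before a start site farther downstream, held the NRF1 letters on both strands, at -193 to -186 and, overlapping, at -195 to -188, and 2.26% of windows hold them. The Alas2 window held AGATAA on the opposite strand at -86 to -81, letters found in 9.99% of windows and read by GATA factors of red cell precursors, with a GC box at -26 to -21 and TATAAA on the opposite strand at -209 to -204 (12.4%). The Blvra window held the antioxidant response element core on the opposite strand at -49 to -41, found in 10.2% of windows, and a CCAAT box at -16 to -12 (33.8%). The last bases of the Blvra window, the CCAAT box among them, lie past an earlier annotated start of the gene. These matches are letters in a window and were not tested for binding.

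Alas1 was lower in both HSL-null pools than in the wild type pool on the same diet. Its signal was 1499.8 in HSL-null FD and 1858.6 in wild type FD, and 1174.2 in HSL-null ND and 1726.9 in wild type ND. The lowest array was HSL-null ND and the highest wild type FD, and both HSL-null signals lay below both wild type signals. The log2 genotype ratio, HSL-null over wild type, was -0.31 on FD and -0.56 on ND, or 1.04 and 1.87 times the probe set SD. FD over ND was 0.35 in HSL-null and 0.11 in wild type. All 4 ratios kept their sign under each of the 9 alternative settings, but not every setting could change them. Alas1 is read by a single bright probe set without suffix. Its ratios could thus move only under quantile normalization, median scaling, cyclic loess and the pseudocount in place of the floor. Neither wild type array differed from the other by more than the probe set SD. As the samples are whole liver, fewer cells of a type and less RNA per cell cannot be told apart, here or for the genes that follow.

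Alas2 differed by diet more than by genotype. Its signal was 134.5 in HSL-null FD and 81.0 in HSL-null ND, and 140.9 in wild type FD and 98.9 in wild type ND. Both FD arrays lay above both ND arrays, with log2 ratios of FD over ND of 0.73 in HSL-null and 0.51 in wild type. The genotype ratios were -0.07 on FD and -0.29 on ND. The ratio on ND lay under the probe set SD but above the SD of 0.255 for genes with a mean signal over 100, of which Alas2, with a mean of 113.8, is one. The probe set carries a suffix that marks probes shared among transcripts.

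The median ratio of the kept red blood cell markers had the sign of the Alas2 ratio for genotype on both diets. For diet it had the same sign in HSL-null and the opposite sign in wild type. Of the 24 listed, 14 had a probe set and 7 were kept, and their summed signal was 3830.2 in HSL-null FD, 4329.8 in wild type FD, 3525.5 in HSL-null ND and 4147.4 in wild type ND. For HSL-null over wild type on ND, 0 of 7 kept markers were above 0, with a median log2 ratio of -0.27, next to the -0.29 of Alas2. Under median scaling these were -0.14 for the markers and -0.16 for Alas2. On FD, 3 of 7 were above 0, with a median of -0.03, next to the -0.07 of Alas2. With no filter on low signals, the 14 markers had a median of 0.23 on FD, of opposite sign to Alas2. FD over ND had a median log2 ratio of 0.11 in HSL-null, with 6 of 7 kept markers above 0, and of -0.14 in wild type, with 2 of 7 above 0, and both medians changed sign under median scaling. The globin genes carried most of the sum, with Hba-a1 at 2327.1, 2807.6, 2242.4 and 2706.6 and Hbb-b2 at 1092, 1180.3, 942.2 and 983.6 in HSL-null FD, wild type FD, HSL-null ND and wild type ND. Each has near-identical copies that may share its probes. None of the 14 was at the floor on all 4 arrays, and their part in the Alas2 signal was not tested.

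Urod and Cpox both stood apart on the wild type FD array, in opposite directions. Urod had signals of 220.4 in HSL-null FD, 307.6 in wild type FD, 241.2 in HSL-null ND and 220.3 in wild type ND. It was highest on wild type FD, with a log2 ratio of -0.48 for HSL-null over wild type on FD and of 0.48 for FD over ND in wild type, and the lowest pair of arrays differed by less than 0.01. Its dimmer probe set went the other way. That probe set had signals of 36.4 in HSL-null FD, 6.3 in wild type FD, 17.4 in HSL-null ND and 25.8 in wild type ND, a mean of 21.5 that lies under the filter, so the direction of Urod rests on its brighter probe set.

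Cpox was lowest on wild type FD at both of its probe sets. The brighter one had signals of 191.0 in HSL-null FD, 124.5 in wild type FD, 180.0 in HSL-null ND and 214.5 in wild type ND, and the other had 152.4, 75.7, 122.1 and 116.9 in the same order. For HSL-null over wild type on FD the log2 ratios were 0.62 and 1.01, so the dimmer probe set reached 2-fold and the brighter did not. For FD over ND in wild type they were -0.78 and -0.63. On ND the genotype ratios were -0.25 and 0.06, with opposite signs and both smaller than the probe set SD. Both probe sets carry suffixes of relaxed probe design.

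Fech was dim throughout. Its only probe set had signals of 17.3 in HSL-null FD, 11.5 in wild type FD, 15.9 in HSL-null ND and 13.0 in wild type ND, with a mean of 14.4. Both HSL-null signals lay above both wild type signals, but the genotype ratio of 0.59 on FD shrank to 0.28 with a pseudocount of 16 in place of the floor, and to 0 with the floor at the median of all signals.

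Of the 4 other synthesis enzymes, 3 were measured and none differed 2-fold in any comparison. Alad, which encodes aminolevulinate dehydratase of the second step, had signals of 779.8 in HSL-null FD, 1166.4 in wild type FD, 778.8 in HSL-null ND and 788.8 in wild type ND, and like Urod it stood highest on wild type FD. Uros, which encodes uroporphyrinogen III synthase, had 124.8, 87.4, 96.5 and 105.9 in the same order and, like Cpox, stood lowest there. Ppox, which encodes protoporphyrinogen oxidase, had 30.5 in HSL-null FD, 38.2 in wild type FD, 30.3 in HSL-null ND and 41.5 in wild type ND, with genotype ratios of -0.32 and -0.45 on FD and ND. On the wild type FD array the synthesis genes thus went both ways, with Alas1, Alas2, Alad and Urod at their highest, Cpox, Uros and Fech at their lowest, and Ppox at neither.

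**Figure D1:**
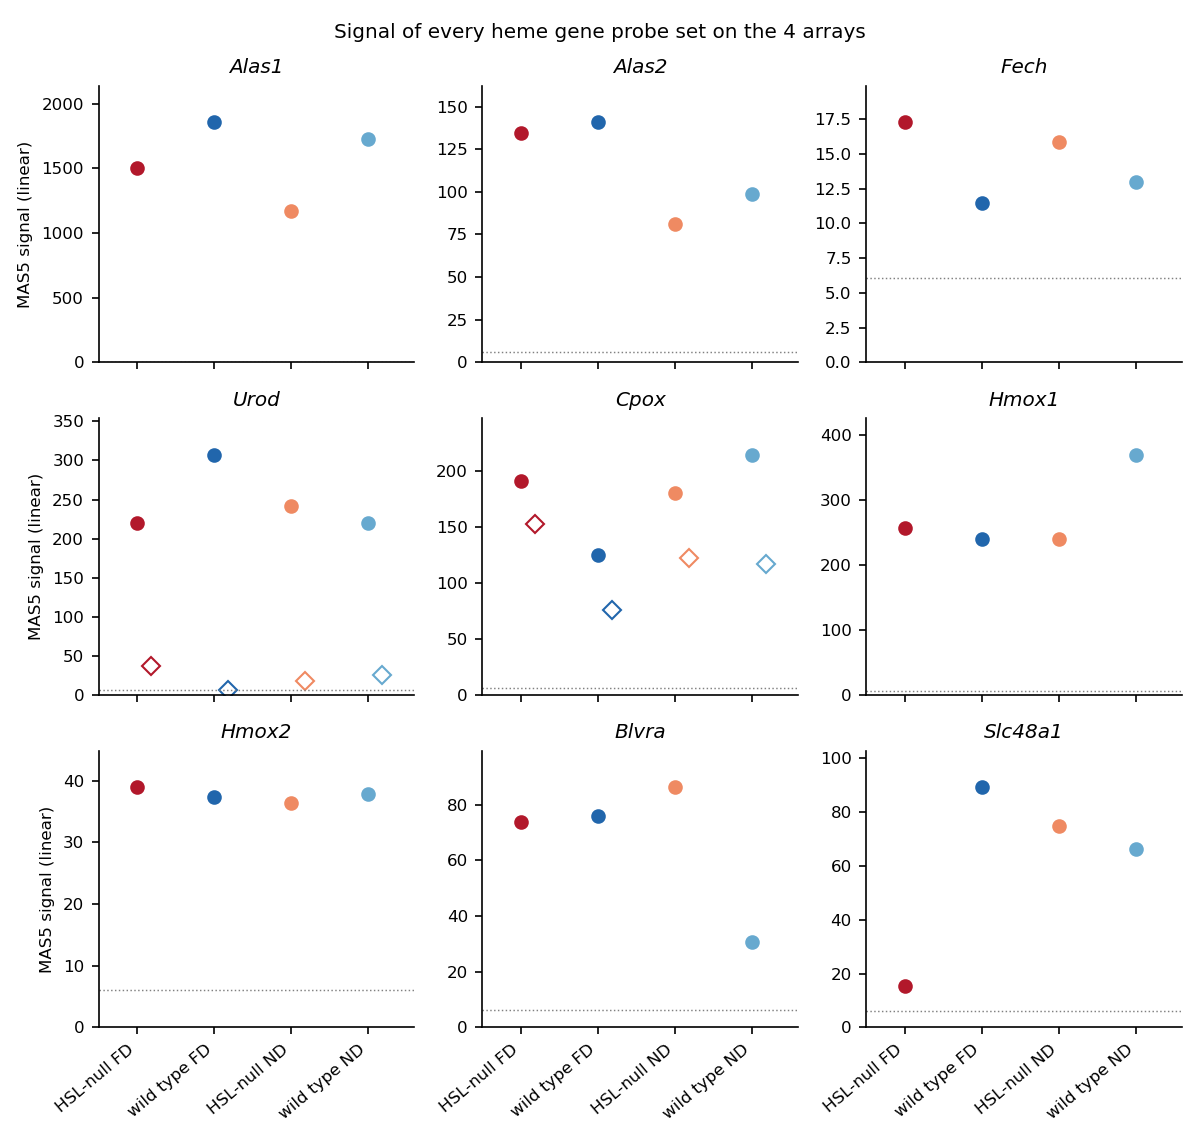
MAS5 signal on a linear axis from 0 of every heme gene probe set, with 1 point per array (HSL-null FD, wild type FD, HSL-null ND, wild type ND). Filled circles are the brightest probe set of a gene, open diamonds its other probe set and the dotted line the floor of 6.1. Slc48a1 stands at 15.5 on HSL-null FD against 66.4 or more elsewhere, and Blvra at 30.5 on wild type ND against 73.9 or more elsewhere.

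Slc48a1, the transporter gene, was low on 1 array. Its signal was 15.5 in HSL-null FD, against 89.4 in wild type FD, and 74.8 in HSL-null ND, against 66.4 in wild type ND. The HSL-null FD pool was 5.77-fold lower than wild type FD (log2 ratio -2.53) and 4.83-fold lower than HSL-null ND (-2.27). The other 3 arrays followed each other by log2 gaps of 0.26 and 0.17, both under the probe set SD. The genotype ratio on ND was 0.17 and FD over ND in wild type was 0.43, the latter 1.44 times the probe set SD.

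Few kept genes had such a pattern. On the HSL-null FD array, 12 of the 4829 kept genes (0.248%), Slc48a1 among them, were 2-fold or more below each of the other 3 arrays. The range of Slc48a1 over the 4 arrays, 2.53 on the log2 scale, was the 13th largest of all kept genes, where the median range was 0.42. These ranks describe a gene that was chosen with its ratio known. A single probe set reads Slc48a1, so no second one checks it, and its low signal of 15.5 is above the floor but below the array median. With the floor raised to the median signal, the ratio was -1.74 for genotype on FD and -1.49 for diet in HSL-null.

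The 3 kept genes whose profile over the 4 arrays lay nearest to that of Slc48a1, by the root mean square difference of centred log2 signals, were Cyp2c39 (0.20), Fdps (0.30) and Sqle (0.30). Cyp2c39 encodes a cytochrome P450, itself a heme protein, and had signals of 494.3 in HSL-null FD, 1985.1 in wild type FD, 1912.5 in HSL-null ND and 1971 in wild type ND. Fdps and Sqle encode the cholesterol synthesis enzymes farnesyl diphosphate synthase and squalene epoxidase. Fdps had 375.2 in HSL-null FD against 1133.2 to 1312.4 on the other arrays, and Sqle 72.9 against 186.3 to 283.2. All 3 were thus lowest on HSL-null FD, as Slc48a1 was, and the likeness rests on 4 arrays.

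Hmox1 was highest in the wild type pool on ND. Its signal was 257.1 in HSL-null FD and 239.1 in wild type FD, and on ND it was 240.4 in HSL-null and 369.8 in wild type. The 3 lower arrays lay within 0.11 of each other on the log2 scale, and wild type ND stood 0.59 above their mean. The log2 ratio was -0.62 for HSL-null over wild type on ND and -0.63 for FD over ND in wild type, each about 2.1 times the probe set SD and neither 2-fold. The other genotype ratio was 0.10 on FD and the other diet ratio 0.10 in HSL-null, and both changed sign under median scaling.

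Kupffer cells and other macrophages clear old red cells and contain much heme oxygenase 1, and the summed signal of their markers was also highest on the wild type ND array. Of the 21 markers listed, 18 had a probe set and 14 were kept. The sum was 4161.8 in HSL-null FD, 3263.9 in wild type FD, 4356.4 in HSL-null ND and 4752.1 in wild type ND. For FD over ND in wild type, 13 of 14 were below 0, with a median log2 ratio of -0.43, and for HSL-null over wild type on ND, 10 of 14 were below 0, with a median of -0.13. For HSL-null over wild type on FD, 13 of 14 were above 0, with a median of 0.28, where Hmox1 had 0.10. For FD over ND in HSL-null, 9 of 14 were below 0, with a median of -0.08, where Hmox1 had 0.10. Of the 14, 9 were highest on wild type ND, as Hmox1 was, 3 on HSL-null ND and 2 on HSL-null FD. Hepatocyte markers moved in the same direction as the macrophage markers for diet in wild type and for genotype on ND. For FD over ND in wild type, 12 of 12 kept hepatocyte markers were below 0, with a median of -0.41, and 9 of 12 were highest on wild type ND. Under quantile normalization that hepatocyte median was -0.16, against -0.42 for the macrophage markers. Under median scaling the 2 medians were -0.27 and -0.29. For HSL-null over wild type, 9 of 12 hepatocyte markers were below 0 on ND (median -0.18) and 5 of 12 on FD (median 0.01). The ND median of the hepatocyte markers was -0.03 under quantile normalization, and that of the macrophage markers -0.004 under median scaling. Their summed signal was 25892.9 in HSL-null FD, 24849.8 in wild type FD, 28992.4 in HSL-null ND and 33649.2 in wild type ND. Of all 4829 kept genes, 2691 were below 0 for FD over ND in wild type, with a median of -0.05, and 1437 were highest on wild type ND. For HSL-null over wild type on ND, 2539 of them were below 0, with a median of -0.02. None of the 18 macrophage markers was at the floor on all 4 arrays, and the part of either cell type in the Hmox1 signal was not tested.

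Hmox2 was the steadiest of the 8 genes. Its signals were 39.0 in HSL-null FD, 37.4 in wild type FD, 36.4 in HSL-null ND and 37.9 in wild type ND, a range of 0.10 on the log2 scale. Of the kept genes, 98.0% had a range at least as large. The 4 ratios lay between -0.06 and 0.10, and their signs changed under median scaling, cyclic loess and quantile normalization alike.

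Blvra was low on 1 array, and not the one on which Slc48a1 was low. Its signal was 73.9 in HSL-null FD and 76.0 in wild type FD, and 86.4 in HSL-null ND and 30.5 in wild type ND. The wild type ND pool stood apart from 3 arrays that differed among themselves by less than the probe set SD. HSL-null ND was 2.83-fold higher than wild type ND (log2 ratio 1.5), and wild type FD was 2.49-fold higher than wild type ND (1.32). Both ratios share the wild type ND array. The genotype ratio on FD was -0.04 and the diet ratio in HSL-null -0.23.

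On the wild type ND array, 8 of the 4829 kept genes (0.166%), Blvra among them, were 2-fold or more below each of the other 3. Blvra rests on a single probe set, and its signal of 30.5 lies near the array medians of 25.2 to 28.3. With a pseudocount of 16 in place of the floor the log2 ratios were 1.14 for genotype on ND and 0.98 for diet in wild type, and the second of these no longer reached 2-fold. The same array was also the one with most signal from exocrine pancreas markers. The summed signal of the 8 measured was 384.9 in HSL-null FD, 342.1 in wild type FD, 332.7 in HSL-null ND and 986.9 in wild type ND, of which none was at the floor on all 4 arrays, and their part in the Blvra signal was not tested.

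The kept genes nearest to Blvra in profile were Immt (0.05), C1d (0.21) and Prelid1 (0.22), by the same measure over 4 arrays. Immt, which encodes a protein of mitochondrial cristae, had signals of 83.1 in HSL-null FD, 92.5 in wild type FD, 99.9 in HSL-null ND and 33.7 in wild type ND. Its other probe set, with a mean signal of 12.5 under the filter, had a genotype ratio of -0.71 on ND, against 1.57 at the brighter one. C1d, which encodes a cofactor of the RNA exosome, had 58.2 in wild type ND and 130.6 or more on the other arrays, and Prelid1, which encodes a mitochondrial lipid transfer protein, had 66.8 and 111.8 or more. The likeness to Blvra is thus that of genes low on wild type ND.

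Over the 8 kept heme genes, 1 gene differed 2-fold or more in each of the 4 comparisons. For HSL-null over wild type on FD this was Slc48a1, lower, and 2.82% of all kept genes differed 2-fold. For the same comparison on ND it was Blvra, higher, with 1.57% of all kept genes. For FD over ND in HSL-null it was Slc48a1, lower, with 1.45% of all kept genes, and in wild type it was Blvra, higher, with 3.15%. The 4 comparisons have 4 arrays between them, and each of these genes appears in both comparisons that use the array on which it was low. Members were chosen with these ratios known, so the counts are descriptions. At 1.5-fold, Cpox joined Slc48a1 for genotype on FD, where 13% of all kept genes differed that much, and Hmox1 joined Blvra on ND, with 6.75%. For FD over ND, Alas2 joined Slc48a1 in HSL-null, with 6.48%, and Cpox and Hmox1 joined Blvra in wild type, with 14.1%.

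The medians of the 8 genes lay between -0.16 and 0.27. The median log2 ratio for genotype was -0.05 on FD, where all kept genes had 0.07, and -0.16 on ND, where all kept genes had -0.02. By diet, FD over ND, it was 0.09 in HSL-null and 0.27 in wild type, where all kept genes had 0.04 and -0.05. Genotype ratios of the 8 genes were above 0 for 3 and below 0 for 5 on each diet, and 2 genes, Alas1 and Alas2, were below 0 on both. No member differed 2-fold in the same direction on both diets or in both genotypes.

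**Figure D2:**
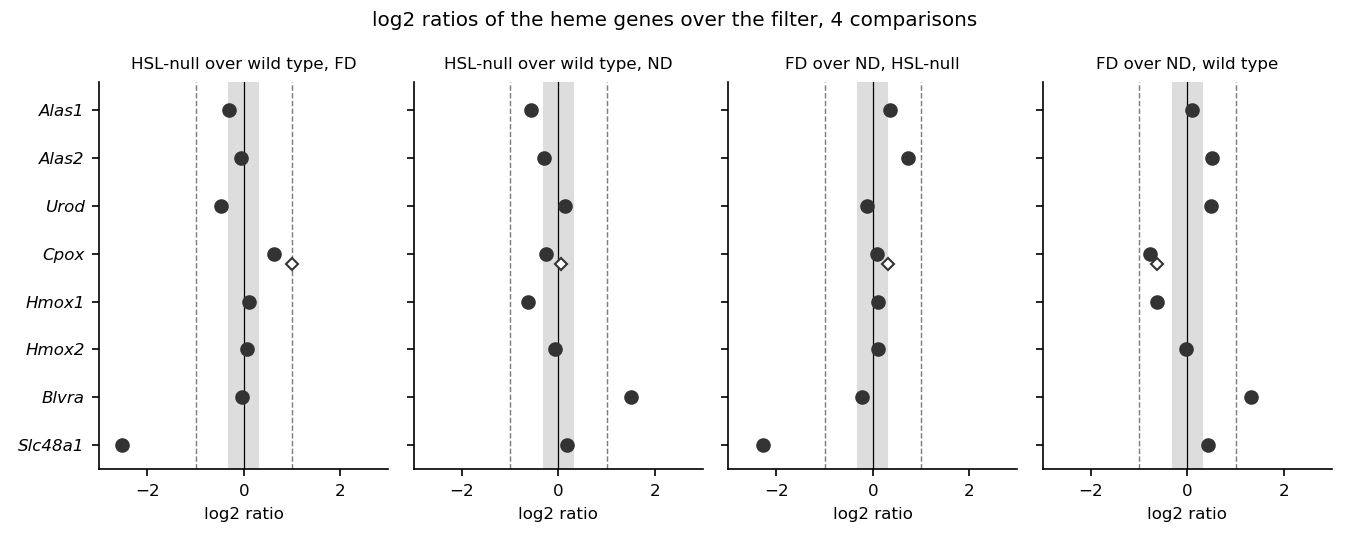
log2 ratio of the 8 kept heme genes in 4 comparisons, with filled circles for the brightest probe set and open diamonds for the second kept probe set of Cpox. The grey band is the probe set SD of 0.298 on either side of 0 and the dashed lines mark 2-fold. Slc48a1 lies at -2.53 and -2.27 in the comparisons that use HSL-null FD with wild type FD or HSL-null ND, and Blvra at 1.5 and 1.32 in those that use wild type ND.

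**Figure D3:**
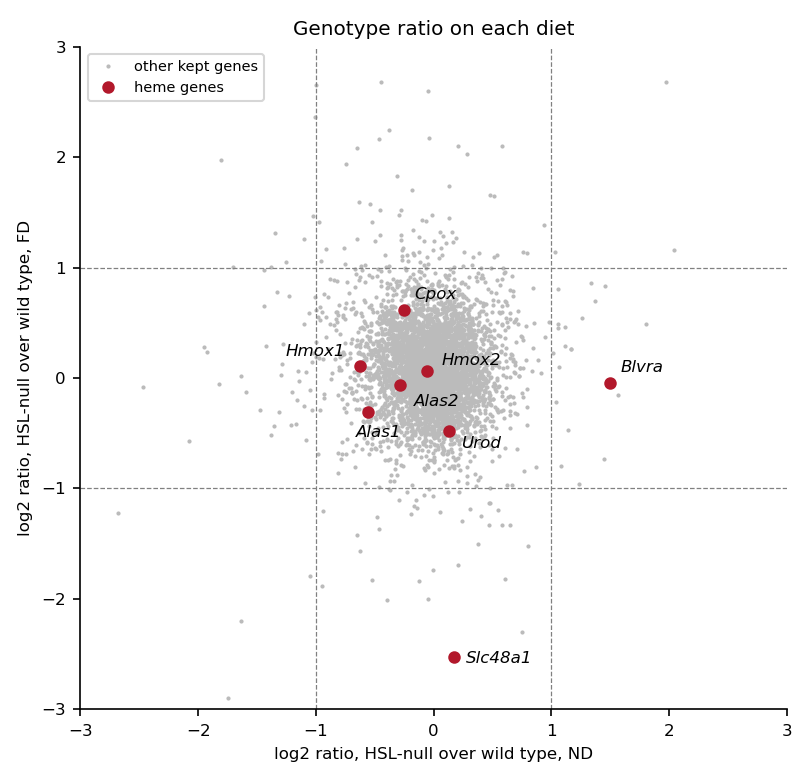
log2 ratio of HSL-null over wild type on ND (horizontal) and on FD (vertical) for the 4829 kept genes, with the 8 heme genes in red and dashed lines at 2-fold. The axes stop at 3 in size and leave out 3 genes. Blvra lies outside the 2-fold lines on ND and Slc48a1 on FD, and the other 6 heme genes lie inside both.

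The difference between diets in the genotype ratio was largest for these same genes among the 8. The ratio on FD minus that on ND was -2.70 for Slc48a1 and -1.54 for Blvra. It was 0.87 for Cpox, 0.73 for Hmox1 and -0.61 for Urod, and from 0.12 to 0.25 for Hmox2, Alas2 and Alas1. With 1 array per group none of these differences was tested.

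Among the proteins that hold heme, the larger genotype ratios were those of cytochromes P450. Of 38 listed heme proteins of the liver, mostly cytochromes P450, 30 were kept. For HSL-null over wild type on FD, 0 were 2-fold higher and 6 lower, with a median log2 ratio of -0.10. There, 1.86% of all kept genes were 2-fold higher and 0.953% lower. On ND, 0 were higher and 2 lower, with a median of 0.06, where 0.497% of all kept genes were higher and 1.08% lower. Those 2 were Cyp2b9 and Cyp2b13, which encode steroid hydroxylases of female liver and lie with Cyp2b10 on chromosome 7, as Lipe does. Cyp2b10 and Cyp2b13 reached the filter on mean signal only through the wild type arrays, where they are high, so their counts as lower follow in part from the filter. Without the 3 Cyp2b genes, a count added after their values were seen, 27 heme proteins were left, of which 3 were 2-fold lower in HSL-null on FD (median -0.04) and 0 on ND (median 0.08). Cyp2b9 was at least 268-fold lower in HSL-null on FD, where it lay at the floor, and 6.31-fold lower on ND. Cyp2b13 lay at the floor in both HSL-null pools and was at least 100-fold lower on FD and, on ND, at least 21.2-fold. Cyp51, the heme enzyme of cholesterol synthesis, had signals of 28.1 in HSL-null FD, 80.5 in wild type FD, 55.9 in HSL-null ND and 32 in wild type ND, and was 2.86-fold lower in HSL-null on FD. For FD over ND the list had 1 gene higher and 3 lower in HSL-null (median -0.06, and 0.005 under cyclic loess), where 0.828% of all kept genes were higher and 0.621% lower, and 3 higher and 0 lower in wild type (median 0.27), where 0.787% were higher and 2.36% lower. Without the 3 Cyp2b genes, 1 was higher and 2 lower in HSL-null (median -0.04). In wild type 2 were then higher and 0 lower (median 0.16).

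Carriers and binders of heme and porphyrins had 12 kept genes of 19 listed, and none differed 2-fold by genotype on either diet. By diet, 0 differed in HSL-null, and 1 was higher (Abcg2) and 1 lower (Lrp1) in wild type, where 0.787% of all kept genes were higher and 2.36% lower. Hemopexin (Hpx), which carries free heme in plasma, had signals of 3540.1 in HSL-null FD, 3775 in wild type FD, 4252.4 in HSL-null ND and 4757.9 in wild type ND. Abcg2, a porphyrin exporter, had signals of 147 in HSL-null FD and 85.9 in HSL-null ND, and 132.3 in wild type FD and 61.2 in wild type ND, so that both FD arrays lay above both ND arrays. Its log2 ratio of FD over ND was 0.78 in HSL-null and 1.11 in wild type. Slc46a1, a folate transporter that also takes up heme, had 165.7 in HSL-null FD, 259.1 in wild type FD, 192.3 in HSL-null ND and 164.2 in wild type ND and was highest on wild type FD. Lrp1, the receptor for hemopexin bound to heme, had a ratio of -1.05 for FD over ND in wild type and -0.05 in HSL-null, and Fabp1, a fatty acid binding protein that also binds heme, had -0.80 and -0.09.

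For the uptake, conjugation and export of bilirubin, 4 of 9 listed genes were kept. None differed 2-fold by genotype or by diet in HSL-null, 1 was 2-fold higher on FD in wild type (Gsta2, log2 ratio 1.10, with 0.787% of all kept genes higher), and the median log2 ratio of FD over ND was 0.49 in HSL-null and 0.36 in wild type. Abcc2, which exports conjugated bilirubin to bile, had signals of 160 in HSL-null FD, 99.8 in wild type FD, 104 in HSL-null ND and 97.1 in wild type ND. Abcc3, the exporter on the blood side, had diet ratios of 0.44 in HSL-null and 0.42 in wild type, and Gsta2 and Gsta3, which encode glutathione transferases that bind bilirubin, had genotype ratios of -0.87 and -0.20 on FD. Of 18 iron genes, 9 were kept and none differed 2-fold in any comparison. Hamp, which encodes the iron hormone hepcidin, had 2544.4 in HSL-null FD, 3619.8 in wild type FD, 3321.1 in HSL-null ND and 3384.2 in wild type ND. Among the others, Tfrc, which encodes the transferrin receptor, had FD over ND ratios of 0.44 in HSL-null and 0.31 in wild type, Ireb2, which encodes an iron regulatory protein, had genotype ratios of 0.64 on FD and 0.32 on ND, and Iscu, which encodes a scaffold of iron-sulfur clusters, had 0.51 and 0.10.

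Among 11 kept regulators of Alas1 and Hmox1, 1 was 2-fold higher in HSL-null on FD and 1 on FD in HSL-null (Egr1 in both), and 2 were lower on FD in wild type (Bach1 and Egr1). Of all kept genes, 1.86% were 2-fold higher for genotype on FD, 0.828% higher for diet in HSL-null and 2.36% lower for diet in wild type. The median for FD over ND was -0.02 in HSL-null and -0.42 in wild type, but -0.04 in wild type with no filter on low signals. Bach1, which encodes the repressor of Hmox1 that heme displaces, had signals of 113.8 in HSL-null FD, 87.0 in wild type FD, 137.9 in HSL-null ND and 177.2 in wild type ND, and was 1 of 5 among the 11 that were highest on wild type ND, as Hmox1 was. Mafg and Mafk, which encode partners of Bach1, had FD over ND ratios of -0.06 and -0.02 in HSL-null, against -0.65 and -0.88 in wild type. Egr1, which encodes an immediate early factor, had 205 in HSL-null FD, 45.8 in wild type FD, 68.7 in HSL-null ND and 94.5 in wild type ND. Its log2 ratio was 2.16 for genotype on FD and 1.58 for diet in HSL-null.

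NFE2L2 drives Hmox1 and a set of antioxidant genes, of which 12 of 16 listed were kept. By genotype 1 of them, Gsta4, was 2-fold lower on FD and 0 differed on ND. By diet 1 was lower in HSL-null (Me1) and 2 were higher in wild type (Gsta4 and Ephx1). Of all kept genes, 0.953% were 2-fold lower for genotype on FD, 0.621% lower for diet in HSL-null and 0.787% higher for diet in wild type. Their genotype median was -0.26 on FD and 0.14 on ND, with Hmox1 at 0.10 and -0.62. Gsta4, a glutathione transferase gene, had 96.3 in HSL-null FD, 242.5 in wild type FD, 104.9 in HSL-null ND and 75.9 in wild type ND, and was highest on wild type FD. Gclc, which encodes the catalytic subunit of glutathione synthesis, had a genotype ratio of 0.75 on FD and 0.17 on ND. Me1, which encodes malic enzyme, had -0.87 and 0.35, and Ephx1, which encodes an epoxide hydrolase, had -0.51 and 0.04. Of the 12 kept targets, 4 were highest on HSL-null FD, 6 on wild type FD, 1 on HSL-null ND and 1 (Gstm1) on wild type ND, as Hmox1 was.

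**Figure D4:**
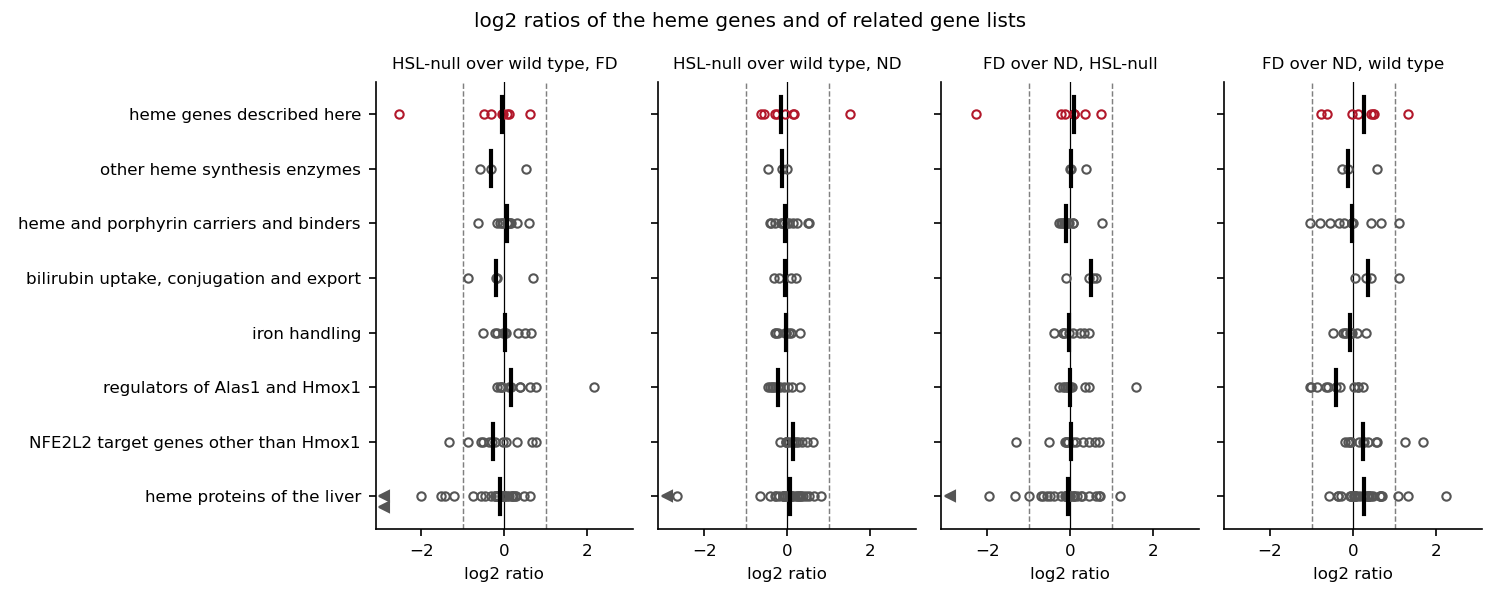
log2 ratios of the kept heme genes (red circles) and of kept genes in 7 related lists (grey circles) in 4 comparisons, with a black bar at the median of each list and dashed lines at 2-fold. Triangles at the left edge stand for heme protein genes below -3, which are Cyp2b9 and Cyp2b13. The medians of the heme genes lie between -0.16 and 0.27.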

How the data were processed

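Liver RNA from 4 pools was measured on 1 array each. The intensities deposited by the authors are linear, with 1 value for each probe set of an array, and come from MAS5 per the submitters' processing notes, which give no version. Per the file headers of the run settings, there were 1 chip lot, 1 scan day and 2 solution lots. The 2% trimmed means of the deposited intensities lay between 100.085 and 100.094, so the arrays had been scaled alike. Probe sets with 1 annotated gene (10833 of 12422) were named, and 10817 matched a RefSeq gene table by identifier.

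Signals were raised to a floor of 6.1 (the 25th percentile) and taken to log2. Probe sets with a mean of at least 26.9 were kept, and the brightest stood for its gene. Genes counted as different at 2-fold, with no test. The genes, the lists and their markers were chosen with earlier results of these data known. The rule for named genes took all heme genes, Lipe, up to 4 genes per list with the largest ratios, all other synthesis enzymes, and the 3 nearest profiles of the 2 heme genes with the largest range. Hpx, Alb, Hba-a1, Hbb-b2, Cyp2b10 and Gstm1 were named after their values were seen. The ratio and count steps were tested on simulated data. Alternatives were quantile normalization, median scaling, cyclic loess (limma 3.58.1), the floor at the median, a pseudocount of 16, no filter, a filter at the 75th percentile, the mean of kept probe sets, no suffix probe sets and a 1.5-fold threshold. Python 3.11.15 was used.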

Additional observations from a re-analysis of the deposited data

Results flagged for a closer look

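The genotype ratio had opposite signs on the 2 diets and differed by 2-fold or more between them for 2 heme genes. For Slc48a1 the log2 ratio on FD minus that on ND was -2.70, with ratios of -2.53 on FD and 0.17 on ND. For Blvra it was -1.54, with ratios of -0.04 on FD and 1.5 on ND. Neither difference was tested, as each group has 1 array, and the smaller ratio of each gene was under the probe set SD of 0.298.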

How the results depend on the processing

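The 1 heme gene counted in each comparison was counted as 1 again under quantile normalization, median scaling, cyclic loess, the floor at the median, no filter, the mean of kept probe sets and without suffix probe sets. The last 3 of these settings could not change the ratios of Slc48a1 and Blvra, each read by 1 probe set without suffix. With a pseudocount of 16 the count was 0 for FD over ND in wild type. With the filter at the 75th percentile it was 0 in all 4 comparisons, as Blvra and Slc48a1 were not among the 5 heme genes left. At 1.5-fold it was 2 for genotype on each diet, 2 for diet in HSL-null and 3 for diet in wild type. Of 296 ratios of single heme genes under the alternatives, 288 moved by less than 0.298 and none of the 2-fold ratios reversed. The 288 include ratios that a setting could not change. Of the 36 ratios, 9 changed sign under a scaling, all of them under 2-fold. Median scaling moved the median of all genes by -0.17 and 0.13 for genotype on FD and ND, and by -0.16 and 0.14 for diet in HSL-null and wild type, and 16 of 44 list medians changed sign under a scaling. The genes 2-fold higher and lower over all kept genes were 90 and 46 for genotype on FD (51 and 72 with median scaling, 63 and 59 with quantile normalization, 60 and 60 with cyclic loess) and 24 and 52 on ND (in the same order of scalings, 30 and 36, 28 and 38, 27 and 40). For diet they were 40 and 30 in HSL-null (22 and 48, 28 and 39, 27 and 41) and 38 and 114 in wild type (61 and 74, 48 and 84, 47 and 90). The totals for genotype on FD and on ND and for diet in HSL-null and in wild type, 136, 76, 70 and 152, were 63, 28, 33 and 69 with the pseudocount, 419, 314, 290 and 482 of 8251 genes with no filter, and 626, 326, 313 and 681 at 1.5-fold. With the floor at the median they were 89, 47, 46 and 109, and with the stricter filter 44, 14, 30 and 47 of 2519 genes. An additive fit of genotype and diet, which would take the difference between diets as error, was not run. Hmox2, Slc48a1 and Blvra, with mean signals of 37.7, 61.5 and 66.7, lay in the range where the SD between probe sets was 0.378, and Fech, with 14.4, lay under the filter.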
